A study of Mus musculus with 36 samples.

Results

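Bulk RNA-seq count profiles of subcutaneous mouse tumors were divided by whether the tumor contained transcripts of H2-Ea, the gene for the alpha chain of the MHC class II molecule H2-E. The gene is listed as H2-Ea-ps (ENSMUSG00000036322). Libraries were selected on measured counts, not on labels: those with more than 10 CPM (counts scaled to a library total of 1000000) of H2-Ea-ps formed 1 side, called H2-Ea-expressing, and those with 10 CPM or less that also held no more than 1000 CPM of Cp, the ferroxidase ceruloplasmin, formed the other, called H2-Ea-negative. The rule placed 11 of the 36 libraries on the expressing side and 12 on the negative side. A further 12 H2-Ea-negative libraries had more than 1000 CPM of Cp and are given here as a separate, Cp-high set, and the library PancO2 anti-PD-1 71 was left out because of its high mitochondrial share.

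By their labels, all animals were wild type and 12 weeks old and carried MC38, CT26 or PancO2 tumors, which are mouse colon (MC38 and CT26) and pancreatic (PancO2) carcinoma lines. MC38 and PancO2 tumors are labelled as grown in C57BL/6J mice and CT26 tumors in BALB/c mice, each as subcutaneous grafts of a cell line, so that a library mixes tumor cells with host cells. Each animal received IgG, anti-CTLA4 or anti-PD-1 by intraperitoneal injection at 10 mg/kg, with 4 libraries in each of the 9 combinations. Of the H2-Ea-expressing libraries, 4 carry the label MC38, 4 CT26 and 3 PancO2, and of the H2-Ea-negative ones 4, 5 and 3. IgG, anti-CTLA4 and anti-PD-1 labels numbered 4, 4 and 3 on the expressing side and 5, 4 and 3 on the negative side. By label, model and treatment were therefore spread over both sides, and neither was used to form them. Whether the labels match the tumors was not tested. The numbers in the library names below are those of the sample titles. No batch is given in the sources used here, and the spread between libraries may be partly technical.

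MHC class II molecules are pairs of an alpha and a beta chain that display peptides to CD4 T cells, and mice have 2 classical kinds, H2-A (genes H2-Aa and H2-Ab1) and H2-E (genes H2-Ea and H2-Eb1). Their transcription is switched on by the coactivator CIITA, chiefly in dendritic cells, macrophages and B cells, and in other cells under interferon gamma. Inbred strains of the H2-b haplotype, C57BL/6 among them, carry a deletion over the promoter and first exon of H2-Ea and make no H2-E protein, whereas strains of the H2-d haplotype such as BALB/c make it. The labelled strains disagree with this in part. On the expressing side, 4 MC38 and 3 PancO2 libraries are labelled C57BL/6J and 4 CT26 libraries BALB/c. On the negative side, 5 CT26 libraries are labelled BALB/c, and 4 MC38 and 3 PancO2 libraries C57BL/6J. Whether samples and labels are correctly matched was not tested. Ifi202b, the second marker of these tumors, belongs to the Ifi200 family of interferon-inducible proteins that bind DNA or act in its sensing, and its level is known to vary among inbred strains.

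The reference sequences at these loci are shown because the comparison turns on genes that are present at a high level on 1 side and nearly without reads on the other. H2-Ea-ps lies on chromosome 17 between 34341959 and 34344645 (GRCm38, minus strand) and is annotated as a polymorphic pseudogene in GENCODE M21. The first of its annotated coding exons, at chr17:34344398-34344644 on the minus strand, has 247 bases, and the annotated transcript does not open with a start codon.
H2-Ea-ps coding exon: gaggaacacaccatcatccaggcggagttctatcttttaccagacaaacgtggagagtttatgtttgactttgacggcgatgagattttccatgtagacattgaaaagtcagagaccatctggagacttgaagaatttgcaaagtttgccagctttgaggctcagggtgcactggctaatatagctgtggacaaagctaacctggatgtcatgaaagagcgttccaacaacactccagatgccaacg
The partner genes H2-Aa and H2-Eb1 have promoter entries in the RefSeq table (GRCm38.p6, 250 bases before to 50 bases after the start site), at chr17:34287774-34288073 on the minus strand and chr17:34305617-34305916 on the plus strand. The letters of the Y box, CTGATTGG, the element bound by the factor NF-Y in class II promoters, are in capitals. Read on both strands, this motif occurs in 4.1% of the 32851 promoters of the table and in those of 4 of the 11 class II list genes with an entry (H2-Aa, H2-Eb1, H2-Eb2 and H2-Oa).
H2-Aa promoter: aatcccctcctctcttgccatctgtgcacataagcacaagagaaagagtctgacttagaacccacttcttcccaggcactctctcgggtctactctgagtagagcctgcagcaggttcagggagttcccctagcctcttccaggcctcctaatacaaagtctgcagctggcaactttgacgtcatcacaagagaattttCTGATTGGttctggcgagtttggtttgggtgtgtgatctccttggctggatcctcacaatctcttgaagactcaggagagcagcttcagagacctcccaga
H2-Eb1 promoter: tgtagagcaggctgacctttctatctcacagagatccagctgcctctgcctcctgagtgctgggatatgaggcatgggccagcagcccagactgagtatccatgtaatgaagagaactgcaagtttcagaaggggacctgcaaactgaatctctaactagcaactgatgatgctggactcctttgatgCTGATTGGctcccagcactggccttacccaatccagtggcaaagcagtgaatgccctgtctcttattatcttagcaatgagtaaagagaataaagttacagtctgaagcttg
Ifi202b lies on chromosome 1 between 173962568 and 173982744 on the minus strand, within a cluster of related genes. Its promoter (chr1:173982795-173983094, minus strand) is set beside those of Mndal (chr1:173880138-173880437, minus strand) and Ifi213 (chr1:173599223-173599522, minus strand), cluster members that were higher and lower in H2-Ea-expressing tumors. Capitals mark the letters GAAANNGAA of the interferon-stimulated response element on either strand, which 8.56% of all promoters hold.
Ifi202b promoter: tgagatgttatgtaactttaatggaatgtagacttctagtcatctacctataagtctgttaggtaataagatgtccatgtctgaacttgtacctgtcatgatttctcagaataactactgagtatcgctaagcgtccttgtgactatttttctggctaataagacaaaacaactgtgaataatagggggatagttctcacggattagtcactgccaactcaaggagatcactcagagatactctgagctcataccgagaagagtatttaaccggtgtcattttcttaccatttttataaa
Mndal promoter: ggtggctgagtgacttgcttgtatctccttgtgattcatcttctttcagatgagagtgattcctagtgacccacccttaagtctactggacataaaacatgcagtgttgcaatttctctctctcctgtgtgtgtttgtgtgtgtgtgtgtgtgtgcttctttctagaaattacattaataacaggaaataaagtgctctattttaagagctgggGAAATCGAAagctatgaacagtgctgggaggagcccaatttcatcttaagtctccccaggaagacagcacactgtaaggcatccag
Ifi213 promoter: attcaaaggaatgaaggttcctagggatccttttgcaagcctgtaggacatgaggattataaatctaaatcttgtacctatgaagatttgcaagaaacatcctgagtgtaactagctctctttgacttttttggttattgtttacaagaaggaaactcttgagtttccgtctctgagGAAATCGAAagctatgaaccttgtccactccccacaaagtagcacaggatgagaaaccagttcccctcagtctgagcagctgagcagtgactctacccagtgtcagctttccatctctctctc
The motif was matched in 9 of the 12 Ifi200 genes with an entry, among them Mndal and Ifi213, and not in this window of Ifi202b, Ifi209 or Aim2. All of these are reference sequences of C57BL/6J and need not be those carried by the tumors.

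H2-Ea-ps ranged from 32.8 to 134 CPM in the 11 H2-Ea-expressing tumors, with a median of 76.5 CPM (439 to 2902 counts per library). In the 12 H2-Ea-negative tumors it had no count in 11 libraries and 1 count in the remaining library, which corresponds to 0.0352 CPM. Nothing lay between these ranges, and the Cp-high set reached no more than 0.0845 CPM. Cp ranged from 36.5 to 143 CPM in the expressing tumors, from 255 to 611 CPM in the negative tumors and from 1389 to 2168 CPM in the Cp-high set, so the negative library closest to the Cp threshold held 611 CPM and the nearest library beyond it 1389 CPM. Since these 2 genes set the sides, their values are a description and were not tested.

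**Figure D1:**
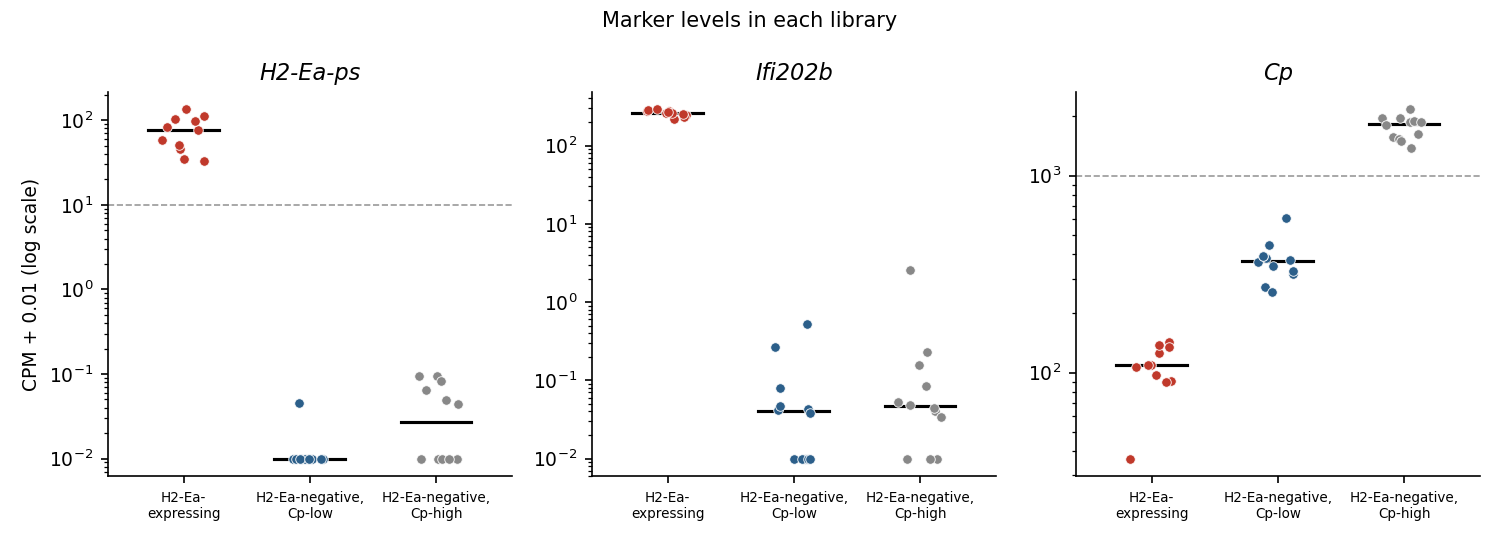
Levels of H2-Ea-ps, Ifi202b and Cp in each library, in CPM plus 0.01 on a log axis, for the 11 H2-Ea-expressing, 12 H2-Ea-negative, Cp-low and 12 H2-Ea-negative, Cp-high libraries. Points are libraries, black bars are medians and dashed lines are the selection thresholds of 10 and 1000 CPM, and the 11 expressing libraries hold 221 to 289 CPM of Ifi202b where no other library exceeds 2.58 CPM.

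Ifi202b separated the libraries in the same way. It ranged from 221 to 289 CPM with a median of 261 CPM in H2-Ea-expressing tumors, from 0 to 0.509 CPM in H2-Ea-negative tumors and from 0 to 2.58 CPM in the Cp-high set. Every expressing tumor was far above every other one. Because Ifi202b was named as a marker of these tumors from the same libraries, no test is given for it and it is left out of the counts of its lists. Its level hardly varied among the expressing tumors, with a coefficient of variation of 8.48%, against 44.8% for H2-Ea-ps.

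The 23 libraries of the 2 sides held 11821687 to 34698970 gene counts, with medians of 26761679 on the expressing and 30042952 on the negative side. Pairs of libraries within the expressing side correlated at 0.981 to 0.996 (Pearson r of log2 CPM over 15217 genes), pairs within the negative side at 0.970 to 0.995, and pairs across the sides at 0.888 to 0.926. Mitochondrially encoded genes took 3.89% to 4.27% of counts in expressing and 2.80% to 3.33% in negative tumors. Reads with more than 1 alignment came to 41.7% to 45.8% and 32% to 37.7% of all counts, unassigned reads included. Neither pair of ranges overlapped, and the part of these shares in the differences below was not tested. In bulk tumors, fewer cells of a type and less RNA per cell cannot be told apart.

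Differences between the sides were fitted with edgeR's quasi-likelihood test over all 15569 genes that passed its filter on low counts, and a gene was called at a Benjamini-Hochberg adjusted p under 0.05. Apart from the 2 genes that set the sides, 11706 of 15567 genes were called (75.2%), 5771 of them higher (37.1%) and 5935 lower (38.1%) in H2-Ea-expressing tumors. With so many calls a call alone says little about a gene, so size and overlap are given beside it: 1507 genes were called higher (9.68%) and 1914 lower (12.3%) by at least 2-fold, and in 5189 (33.3%) the ranges of the sides did not overlap, 2052 with all expressing tumors higher (13.2%) and 3137 with all lower (20.2%). The median difference over all genes was -0.01 on the log2 scale. These adjusted p-values describe how far tumors sorted by their own transcripts lie apart, and they do not test a labelled condition. With the left-out library added to the expressing side, 4023 genes in place of 5189 had ranges without overlap.

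The other class II genes were read without H2-Ea-ps, whose difference was set by the rule. Of 13 other tested class II genes, 2 were called higher and 6 lower in H2-Ea-expressing tumors (37.1% and 38.1% of all genes), 1 and 3 of them by at least 2-fold (9.68% and 12.3%), and 1 had ranges without overlap (33.3%), with a median log2 difference of -0.75. H2-Aa, the alpha chain of H2-A, ranged from 35.4 to 153 CPM (median 71.6) in expressing and from 16.6 to 494 CPM (median 125) in negative tumors, so that the expressing range lay inside the negative one. Its difference was -0.94 ± 0.47 (log2 ± SE, adjusted p = 0.078). It was called when the Cp-high set was added to the edgeR fit (adjusted p = 0.0451) and when the library CT26 IgG 24, CT26 anti-PD-1 40 or CT26 anti-PD-1 41 was left out (edgeR adjusted p from 0.0357 to 0.0404). H2-Eb1, the beta chain that pairs with H2-Ea, ranged from 21.6 to 112 CPM (median 54.2) and from 10.7 to 393 CPM (median 85.4), a difference of -0.91 ± 0.49 (adjusted p = 0.098, and 0.0474 without CT26 anti-PD-1 41). The rule fixed which tumors held H2-Ea-ps, and negative tumors had at most 1 count of it. H2-Eb1 transcripts were found on both sides.

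The invariant chain Cd74 and the coactivator Ciita overlapped between the sides as well, at 120 to 401 against 46.1 to 1325 CPM and at 3.43 to 16.8 against 1.34 to 29.2 CPM, and neither was called (adjusted p = 0.19 and 0.87). H2-DMb2, a beta chain of the peptide-loading molecule H2-DM, was the class II gene higher by more than 2-fold, at 4.70 to 12.5 CPM against 2.13 to 6.77 CPM (1.15 ± 0.19, adjusted p = 6.9e-06). Its paralog H2-DMb1 went the other way, at 5.52 to 19.5 CPM against 10.6 to 47.0 CPM (-1.09 ± 0.28, adjusted p = 0.0013). H2-Ob, a subunit of the H2-DM inhibitor H2-O, was lower by 1.35 ± 0.31 at levels of at most 3.61 CPM. Reads of H2-DMb1 and H2-DMb2 may be split between these near-identical neighbors.

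Among the expressing tumors themselves, the level of H2-Ea-ps went with those of other class II genes. Over the 11 libraries its log2 CPM correlated with that of H2-Eb1 at r = 0.989 (Spearman rho = 0.973), of H2-Aa at 0.983 (0.964), of Cd74 at 0.982 (0.982), of H2-Ab1 at 0.979 (0.964) and of Ciita at 0.949 (0.864). Without the 2 libraries farthest from the median of H2-Ea-ps, r was 0.983 for H2-Eb1, 0.971 for H2-Aa, 0.971 for Cd74, 0.958 for H2-Ab1 and 0.894 for Ciita. With Ptprc, the pan-leukocyte gene for CD45, r was 0.450 (rho = 0.455, and r = 0.386 without the 2 libraries), and with Ifi202b 0.649 (rho = 0.791, and r = 0.754). These 7 relations are a description with no test, because H2-Ea-ps set the sides. All values of a library share its depth and its mix of cells.

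**Figure D2:**
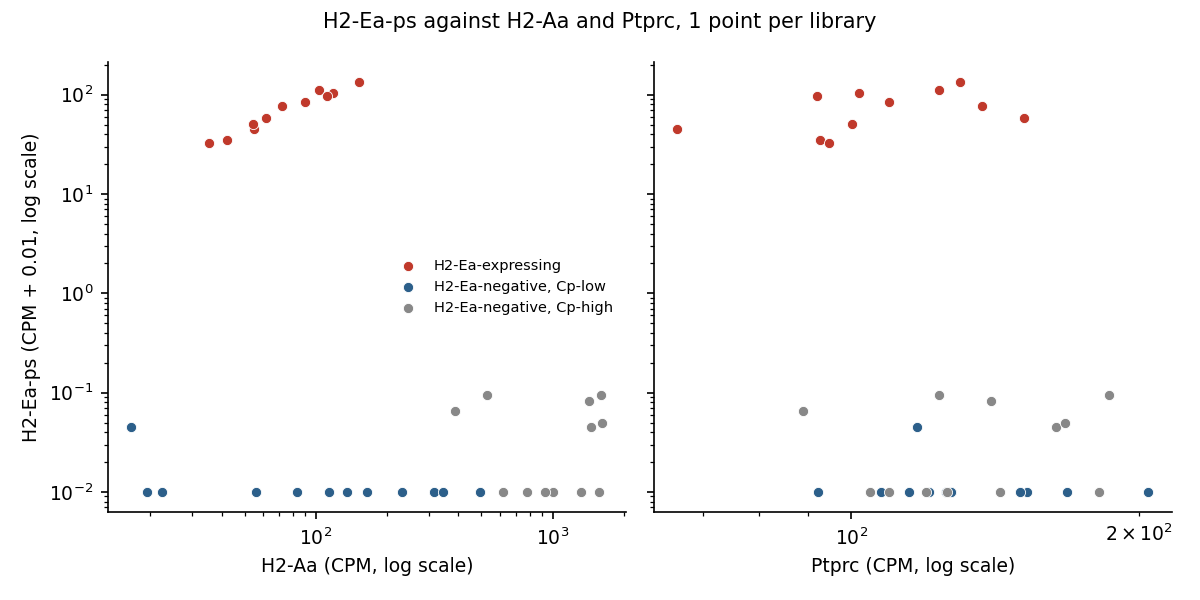
H2-Ea-ps (CPM plus 0.01, log axis) against H2-Aa and against Ptprc (CPM, log axes), with 1 point per library and the 3 sets in 3 colors. In the 11 expressing tumors H2-Ea-ps goes up with H2-Aa (r = 0.983). Negative tumors with up to 494 CPM and Cp-high tumors with up to 1625 CPM of H2-Aa are at or under 0.0845 CPM of H2-Ea-ps. That gene placed them outside the expressing side.

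In the negative tumors no such relation could be formed. The library MC38 IgG 2 had the highest H2-Aa level of that side, 494 CPM or 15170 counts, with 0 counts of H2-Ea-ps, and in the Cp-high set the library MC38 anti-PD-1 17 had 1625 CPM of H2-Aa, or 41634 counts, with 1 count of H2-Ea-ps. These libraries held more H2-Aa than any expressing tumor, and their low H2-Ea-ps is what placed them outside that side. The summed level of the 15 class II list genes, which leaves out H2-Ea-ps, was 524 to 1255 CPM in expressing, 514 to 3569 CPM in negative and 2264 to 9318 CPM in Cp-high tumors.

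Among the genes next to H2-Ea-ps, which itself set the sides, some had overlapping ranges and some did not. Of the 5 tested neighbors on each side, H2-Ab1, H2-Aa and H2-Eb1 on 1 flank and Notch4 and Pbx2 on the other had overlapping ranges. H2-Ab1 was lower at the edge of the threshold (-1.04 ± 0.46, adjusted p = 0.046), and the call was lost in 14 of the 23 edgeR fits that left out 1 library (adjusted p from 0.051 to 0.127, the highest without MC38 IgG 2). Pbx2 gained a call without CT26 anti-CTLA4 34 or PancO2 IgG 49 (adjusted p = 0.0315 and 0.0362) and Notch4 without PancO2 anti-PD-1 64 (adjusted p = 0.0499). Gpsm3, a regulator of G protein signaling, and Ager, the receptor for advanced glycation end products, were lower without overlap, Gpsm3 at 6.57 to 9.32 CPM against 19.1 to 27.4 CPM (-1.48 ± 0.07, adjusted p = 4.9e-16) and Ager at 0.896 to 1.71 CPM against 3.22 to 7.55 CPM (-1.97 ± 0.14, adjusted p = 1.1e-12). The pseudogene Btnl7-ps was the neighbor that was higher, by 1.64 ± 0.25 at levels of at most 1.40 CPM.

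MHC class I and related genes leaned to the expressing side. Of 30 tested members, 12 were higher and 1 lower by at least 2-fold (9.68% and 12.3% of all genes). Without overlap, 13 were higher and 1 lower (13.2% and 20.2% of all genes), and the median difference was 0.65. The largest difference was that of the nonclassical gene H2-Q2, which ranged from 50.7 to 88.2 CPM (median 75.3) in expressing and from 0 to 0.358 CPM (median 0.188) in negative tumors, a difference of 8.66 ± 0.18 (adjusted p = 1.5e-23), and the Cp-high set had a median of 0.309 CPM. H2-Q10, known as a secreted class I molecule of liver, ranged from 80.4 to 151 CPM against 3.93 to 12.3 CPM (4.03 ± 0.18, adjusted p = 6.0e-16). H2-Q6 (2.19 ± 0.23), H2-Q5 (1.85 ± 0.18), H2-T24 (1.73 ± 0.14) and H2-M3, which presents formylated peptides (1.20 ± 0.10), were also higher without overlap.

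The classical class I genes differed less and in opposite directions. H2-D1 ranged from 1183 to 1610.0 CPM against 539 to 1152 CPM (0.78 ± 0.11, adjusted p = 3.8e-07), without overlap, whereas H2-K1 was lower, at 548 to 752 CPM against 550.1 to 1512 CPM (-0.58 ± 0.13, adjusted p = 2.0e-04). B2m, the common light chain, was higher by 0.46 ± 0.10 with overlapping ranges, and the peptide transporter Tap1 was not called (0.33 ± 0.19, adjusted p = 0.11, and 0.0244 without PancO2 IgG 51). Ligands of the activating receptor NKG2D were among the higher genes, H60b at 2.08 to 4.03 CPM against 0.126 to 0.424 CPM (3.49 ± 0.18) and Ulbp1 at 15.3 to 30.3 CPM against 4.41 to 9.94 CPM (1.91 ± 0.14). H60c was higher by 5.33 ± 0.34 at levels of at most 1.27 CPM. Class I genes are near-identical to each other and polymorphic between haplotypes, and the counter drops reads with several alignments, so that how reads of other alleles were assigned among them was not tested.

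**Figure D3:**
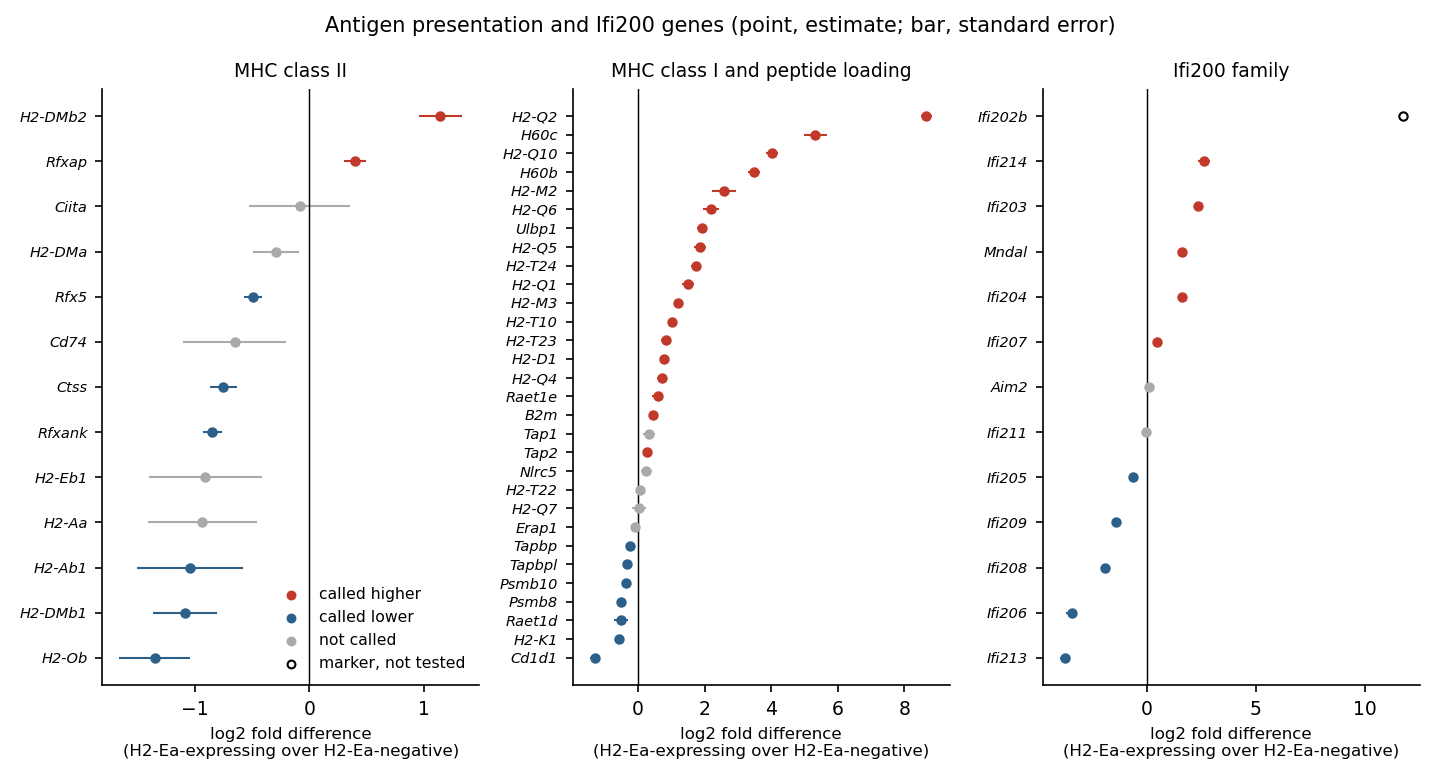
Log2 fold differences of the tested class II, class I and Ifi200 genes, H2-Ea-expressing over H2-Ea-negative tumors, with standard errors as bars. Red and blue points are genes called higher and lower, and gray points were not called. The open point is Ifi202b (11.74), a marker that was in the fit but for which no test is given. H2-Q2 (8.66) lies farthest to the right among the others.

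The Ifi200 cluster on chromosome 1 differed in both directions. Of its 12 tested members other than Ifi202b, 4 were higher and 4 lower by at least 2-fold (9.68% and 12.3% of all genes), all 8 without overlap (33.3% of all genes). Ifi203 ranged from 283 to 575 CPM (median 435) in expressing and from 66.8 to 122 CPM (median 89.1) in negative tumors, a difference of 2.36 ± 0.11 (adjusted p = 5.9e-16). Ifi204, a DNA sensor, ranged from 132 to 207 CPM against 39.0 to 74.9 CPM (1.60 ± 0.11), Mndal from 112 to 241 CPM against 51.4 to 84.7 CPM (1.61 ± 0.11) and Ifi214 from 1.20 to 5.79 CPM against 0.0912 to 1.11 CPM (2.62 ± 0.28).

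Other members of the same cluster were lower in expressing tumors. Ifi213 ranged from 0.211 to 2.05 CPM (median 1.27) in expressing and from 10.9 to 23 CPM (median 16.9) in negative tumors (-3.75 ± 0.23, adjusted p = 1.3e-13), and Ifi206 from 0.271 to 1.37 CPM against 4.83 to 15.3 CPM (-3.44 ± 0.25). Ifi208 (-1.93 ± 0.15) and Ifi209 (-1.40 ± 0.14) were lower as well. Ifi211 and Aim2, a cytosolic DNA sensor that builds an inflammasome, were not called (-0.02 ± 0.09 and 0.12 ± 0.12), although Aim2 was without PancO2 IgG 49 (adjusted p = 0.0438). Mndal overlaps Ifi203 and Ifi211 on the same strand in the annotation and family members share sequence, so the split of reads among them is uncertain. Farther from the cluster, Fh1, the mitochondrial fumarase, had nearly the same level on both sides (52.1 to 67.6 and 55.7 to 72.2 CPM, 0.02 ± 0.05).

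A list of 62 measured genes known to differ between inbred strains held differences in both directions. Of 50 tested other than Ifi202b, 6 were higher and 9 lower by at least 2-fold (9.68% and 12.3% of all genes). Without overlap, 4 were higher and 12 lower (13.2% and 20.2%), with a list median of -0.02. These 16 of 50 are near the 33.3% of all genes. Klra4, which encodes the NK cell receptor Ly49D, had 0 to 0.108 CPM in expressing and 57.9 to 89.0 CPM in negative tumors (-10.32 ± 0.16, adjusted p = 1.7e-26), with a median of 43.0 CPM in the Cp-high set. Apobec3, a restriction factor of retroviruses, ranged from 49 to 65.0 CPM against 153 to 240 CPM (-1.83 ± 0.07, adjusted p = 2.0e-18). Trim12a (-4.57 ± 0.13) and Trim5 (-3.39 ± 0.16), members of a family with restriction factors, the inflammasome receptor gene Naip1 (-3.70 ± 0.29) and the inflammasome sensor Nlrp1a (-2.20 ± 0.15) were lower, all without overlap.

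On the higher side of that list, Ceacam1, a cell adhesion molecule and the receptor of a mouse coronavirus, ranged from 20.5 to 74.5 CPM against 1.71 to 5.16 CPM (3.95 ± 0.21, adjusted p = 1.9e-14). Glo1, the glyoxalase whose copy number is known to vary among strains, ranged from 111 to 145 CPM against 31.1 to 39.7 CPM (1.88 ± 0.05, adjusted p = 5.1e-22). Ahr, the aryl hydrocarbon receptor, was higher by 1.62 ± 0.09. Nnt, which C57BL/6J carries in a shortened form, was lower by little, at 75.2 to 87.8 CPM against 91.4 to 123 CPM (-0.32 ± 0.04, adjusted p = 5.6e-08).

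Large differences also lay outside the MHC. After Ifi202b, the genes with the largest positive differences among those of at least 10 CPM and without overlap included the processed pseudogenes Rbpj-ps3 (41.4 to 69.5 CPM against at most 0.0591 CPM) and Rps2-ps13 (85.2 to 124 CPM against at most 0.102 CPM), and the ribosomal protein gene Rpl39l (81.3 to 105 CPM against at most 0.456 CPM). Their counts cannot be told apart from reads of near-identical parent genes placed there. Among genes with a product of their own, Baiap2l1, an adaptor that links membranes to actin, ranged from 1325 to 1725 CPM (median 1427) in expressing and from 1.06 to 2.62 CPM in negative tumors (9.85 ± 0.12, adjusted p = 2.7e-28), and the Cp-high set had a median of 25.8 CPM. Fer1l6 (109 to 139 against at most 0.411 CPM, 9.30 ± 0.12), Cyp2c55, a cytochrome P450 of gut and liver (61.2 to 79.3 against at most 0.158 CPM, 9.64 ± 0.11), Vldlr, a receptor of lipoproteins (223 to 407 against at most 1.63 CPM, 8.67 ± 0.20) and Nefm, a neurofilament subunit (21.7 to 62.9 against at most 0.155 CPM, 9.88 ± 0.26), followed the same pattern.

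Some of these genes had almost no counts on the negative side, so that a pooled ratio is given with its 95% exact interval, which covers counting error alone. Foxa1, a pioneer factor of endoderm, had 4607 counts in the 11 expressing and 2 counts in the 12 negative tumors, a ratio of 3231 (894 to 26685). Foxd1, a factor of kidney stroma, had 3796 and 2 counts, a ratio of 2662 (736 to 21989), and the interferon-induced Ifi44l 2502 and 2 counts, a ratio of 1755 (485 to 14496). The carboxylesterase Ces1f had 4004 and 3 counts, a ratio of 1872 (640 to 9081), but ranged from 1.62 to 35.3 CPM among expressing tumors. Rims2, of the synaptic release machinery, had 16.5 to 32.5 CPM against at most 0.0653 CPM.

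In the other direction, the genes with the largest differences were taken by the same rule. Hoxa11 had 0 counts in all 11 expressing tumors and 5046 counts in the negative ones (5.74 to 18.1 CPM), so it was at least 1199-fold lower, taking 3 counts over the expressing side as the most that 0 counts allow. Igf2os, a transcript antisense to the growth factor gene Igf2, had 1 count against 9545, a ratio of 6806 (1221 to 268840) in favor of the negative side, and Igf2 itself was lower by 6.29 ± 0.45. Wnt7b, a secreted Wnt ligand, ranged from 0 to 0.169 CPM against 32.4 to 84.6 CPM (-9.90 ± 0.25, adjusted p = 1.9e-21). Acsl6, a fatty acid activating enzyme (-9.19 ± 0.16), Nek10, a kinase (-8.89 ± 0.33), Bnc1, a zinc finger protein of epithelia (-8.65 ± 0.47), Pitx1, a hindlimb homeobox factor (-8.18 ± 0.13), Rab6b, a Golgi GTPase (-8.03 ± 0.33), the phosphatase gene Acpp (-7.63 ± 0.20), Prdm16, a regulator of brown fat (-7.51 ± 0.14), and Gpr149, an orphan receptor (-7.46 ± 0.33), completed the list with Klra4, Krt8, Hoxc11 and Hoxc13. Counting strand is not given in the sources used here, so reads of Igf2os and Igf2 cannot be told apart.

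The Cp-high set was read at the same genes. Of 373 genes that were called at least 8-fold higher in expressing tumors, the Cp-high median was nearer that of the negative tumors in 284 and nearer that of the expressing tumors in 89. Of 431 genes at least 8-fold lower, it was nearer the negative tumors in 222 and nearer the expressing tumors in 209. Foxd1, for example, had a median of 26.0 CPM in the Cp-high set and 15 CPM in expressing tumors, whereas Wnt7b had 131 CPM there and 63.1 CPM in negative tumors.

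Hox genes, which record the position along the body axis from which a cell type came, were lower in expressing tumors wherever they differed strongly, with 1 exception. Of 28 tested, 13 were lower by at least 2-fold and without overlap (12.3% and 20.2% of all genes), and 1 was higher, and their summed level was 127 to 162 CPM against 307 to 380 CPM. The posterior HoxC genes were among them. Hoxc10 ranged from 0.130 to 0.604 CPM (median 0.338) in expressing and from 47.5 to 57.6 CPM (median 53.1) in negative tumors (-7.12 ± 0.13, adjusted p = 5.3e-25), with 7.36 CPM in the Cp-high set. Hoxc9 (-5.28 ± 0.12), Hoxc11 (-8.17 ± 0.21) and Hoxc13 (-7.89 ± 0.32) went with it, while the Cp-high medians were 14 CPM of Hoxc9, 0.0722 CPM of Hoxc11 and 0.0624 CPM of Hoxc13. Hoxb9 was the higher gene, at 2.38 to 4.57 CPM against 0.293 to 1.21 CPM (2.51 ± 0.19).

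Keratins split between the sides. Keratin 8 and keratin 18, the products of Krt8 and Krt18, pair into the simple epithelial filament, yet Krt8 was lower and Krt18 higher in expressing tumors. Krt8 ranged from 0.0374 to 1.22 CPM (median 0.391) in expressing and from 56.8 to 420 CPM (median 141) in negative tumors (-8.65 ± 0.46, adjusted p = 2.3e-14). Krt18 ranged from 6.84 to 40.6 CPM (median 9.21) against 0.195 to 1.45 CPM (median 0.346), a difference of 4.75 ± 0.36 (adjusted p = 1.5e-11), and the Cp-high set had both, with medians of 435 and 285 CPM. Krt20, a keratin of intestinal epithelium, ranged from 72.7 to 253 CPM in expressing tumors and reached 2.36 CPM in negative ones (8.12 ± 0.30, adjusted p = 1.4e-17). Epcam, a defining marker of carcinoma cells, reached 0.475 CPM at most in the 23 libraries and was not tested.

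Cadherins and other genes of cell state differed too. Cdh2, neuronal cadherin, ranged from 93.6 to 115 CPM in expressing tumors against 0.202 to 0.880 CPM in negative ones (7.91 ± 0.13, adjusted p = 5.0e-26), and Cdh1, epithelial cadherin, was low on both sides (1.27 to 2.58 and 2.32 to 12.4 CPM, -1.65 ± 0.21). The mesenchymal filament gene Vim was at 4163 to 5820 CPM against 2984 to 4903 CPM (0.43 ± 0.08). Twist1 was higher by 0.86 ± 0.04 and Zeb1 lower by 0.72 ± 0.08, both transcription factors of the mesenchymal state and both without overlap.

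Among 44 tested oncogenes and tumor suppressors, 4 were higher and 5 lower by at least 2-fold (9.68% and 12.3% of all genes). Egfr, the epidermal growth factor receptor, ranged from 2.69 to 8.09 CPM (median 3.64) in expressing and from 99.1 to 131 CPM (median 117) in negative tumors (-4.61 ± 0.13, adjusted p = 1.1e-20). Mycn (-7.24 ± 0.23, 0.0711 to 0.462 against 19.3 to 52.9 CPM) and Mycl (-4.25 ± 0.24) were lower, while Myc was slightly higher, at 157 to 237 CPM against 106 to 197 CPM (0.47 ± 0.08). Ccnd2, cyclin D2, was higher by 2.72 ± 0.14. Smad4, the common mediator of TGF-beta signaling, ranged from 96.6 to 105 CPM against 29 to 44.4 CPM (1.58 ± 0.05, adjusted p = 1.2e-19).

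Cdkn1a and Mdm2, both known targets of p53, were higher. Cdkn1a, the cell cycle inhibitor p21, ranged from 123 to 221 CPM against 24.5 to 62.5 CPM (2.08 ± 0.15, adjusted p = 2.6e-12), and Mdm2, the ubiquitin ligase of p53, from 153 to 256 CPM against 61.6 to 84.1 CPM (1.58 ± 0.08, adjusted p = 6.1e-16). Trp53 itself was at 117 to 140 CPM against 122 to 196 CPM (-0.22 ± 0.06). Cdkn2a reached 0.808 CPM at most on both sides, and Mtap, its neighbor, was at 208 to 258 CPM against 289 to 412 CPM, with a median of 8.34 CPM in the Cp-high set.

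Growth factors were lower more often than higher, 17 against 7 of 38 tested at 2-fold (12.3% and 9.68% of all genes). The higher ones included ligands of the EGF receptor family. Ereg, epiregulin, ranged from 216 to 462 CPM (median 380) in expressing and from 6.05 to 25.6 CPM (median 18.5) in negative tumors (4.61 ± 0.22, adjusted p = 3.1e-15), Areg, amphiregulin, from 7.48 to 26.4 CPM against 0.458 to 4.10 CPM (3.12 ± 0.28) and Hbegf from 148 to 273 CPM against 20.1 to 66.1 CPM (2.26 ± 0.15), all in tumors with low Egfr. The cytokine Il11 was higher by 3.04 ± 0.22 and Wnt10a by 2.39 ± 0.12. Wnt5a (-5.25 ± 0.26), Vegfc (-3.91 ± 0.31), Bmp4 (-3.34 ± 0.19), Hgf (-3.12 ± 0.21) and Tgfb2 (-2.41 ± 0.16) were lower without overlap.

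**Figure D4:**
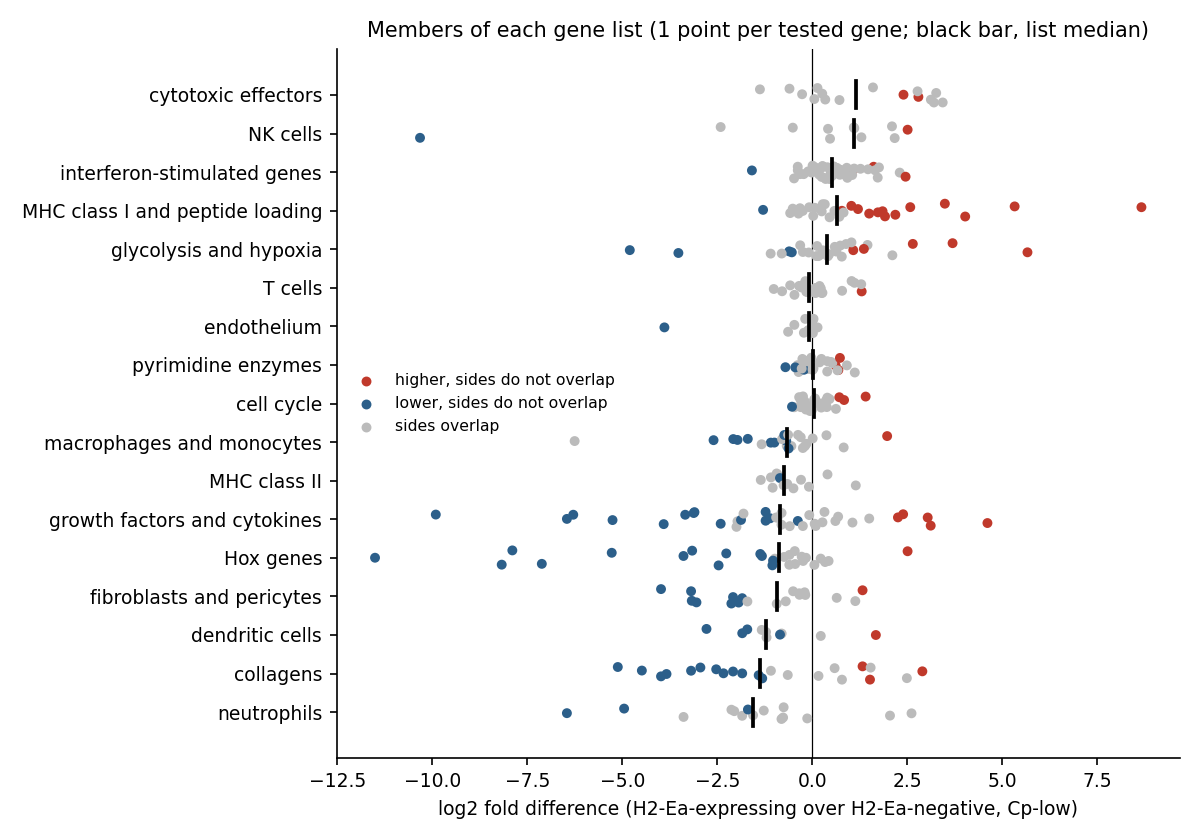
Log2 fold differences of the tested members of 17 gene lists, H2-Ea-expressing over H2-Ea-negative tumors, with 1 point per gene and the list median as a black bar, where Hoxa11, without a count in expressing tumors, stands at a fitted value that is no estimate of its size. Red and blue points are genes whose ranges do not overlap between the sides, and cytotoxic effectors have the highest list median (1.16) and neutrophil genes the lowest (-1.56).

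Of 16 tested genes of cytotoxic lymphocytes, 8 were higher and 1 lower by at least 2-fold in expressing tumors (9.68% and 12.3% of all genes). A further 7 were not called, where 75.2% of all genes were called. The median difference was 1.16. Without overlap, 2 were higher (13.2% of all genes). Prf1, perforin, ranged from 18.5 to 51.3 CPM (median 29.4) against 2.62 to 12.5 CPM (median 5.46), without overlap (2.40 ± 0.25, adjusted p = 5.8e-09), and so did Gzma, granzyme A, at 5.93 to 24 CPM against 0.634 to 5.44 CPM (2.79 ± 0.31). Granzyme B (Gzmb) was higher by 1.60 ± 0.29, and Gzmc, Gzmd, Gzme, Gzmf and Gzmg by 2.77 to 3.43, with ranges that met. Gzmf, for instance, spread from 16.9 to 166 CPM within expressing tumors and from 3.80 to 21.2 CPM within negative ones. The summed level of the list was 136 to 673 CPM against 46.7 to 148 CPM, with a coefficient of variation of 43.6% among expressing tumors.

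Of 24 tested T cell markers, 4 were higher and 1 lower by at least 2-fold (9.68% and 12.3% of all genes). A further 17 were not called, where 75.2% of all genes were called. The summed level was 78.1 to 145 CPM in expressing and 38.9 to 224 CPM in negative tumors. Cd3e ranged from 2.35 to 7.76 CPM against 0.614 to 16.4 CPM (-0.35 ± 0.39, adjusted p = 0.43) and Cd8a from 6.00 to 20.1 CPM against 0.851 to 36.3 CPM (-0.11 ± 0.39, adjusted p = 0.81). Tigit, an inhibitory receptor of T and NK cells, was the T cell list gene higher without overlap (1.30 ± 0.16, adjusted p = 4.4e-08), Ctla4 was higher by 1.11 ± 0.31 and Foxp3 and Pdcd1 were not called. Ifng, interferon gamma, was not called (0.72 ± 0.47, adjusted p = 0.17, and 0.0291 without MC38 IgG 2).

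Of 11 tested NK cell genes, 6 were higher and 2 lower by at least 2-fold (9.68% and 12.3% of all genes), Klra4 among the lower. Ncr1, the activating receptor NKp46 that marks NK cells, ranged from 2.41 to 6.15 CPM against 0.261 to 1.55 CPM (2.51 ± 0.26, adjusted p = 2.2e-09), and Klrk1, which encodes NKG2D, from 7.59 to 19.4 CPM against 2.22 to 12.5 CPM (1.29 ± 0.30). Klrb1b was lower by 2.41 ± 0.38. The summed level of the 15 genes was lower in expressing tumors, 18.7 to 43.4 CPM against 66.8 to 114 CPM, and without Klra4, a step chosen after its values were seen, it was 18.7 to 43.3 CPM against 8.90 to 38.8 CPM with medians of 34.6 and 18.4 CPM. Klra4 varied little among negative tumors (coefficient of variation 12.6%), unlike Ncr1 (54.5%).

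Of 24 tested macrophage and monocyte genes, 15 were called lower and 3 higher (38.1% and 37.1% of all genes), 7 and 1 of them by at least 2-fold (12.3% and 9.68%). Without overlap, 9 were lower (20.2% of all genes), and the list median was -0.65. Csf1r, the receptor for the macrophage growth factor, ranged from 85.8 to 207 CPM (median 142) against 252 to 451 CPM (median 318) (-1.09 ± 0.13, adjusted p = 5.5e-08). Apoe (105 to 348 against 874 to 2534 CPM, -2.60 ± 0.20), Mertk, a receptor for engulfing dying cells (10.1 to 30.7 against 66.8 to 137 CPM, -2.08 ± 0.16), Arg1, arginase of suppressive macrophages (55.9 to 153 against 282 to 568 CPM, -1.97 ± 0.18) and Cx3cr1 (-1.70 ± 0.18) had ranges without overlap. Adgre1, which encodes F4/80, was lower by 0.67 ± 0.13, and Mrc1 was not called (-0.37 ± 0.20, adjusted p = 0.089). Spp1, osteopontin, went against the list, at 3679.6 to 5806 CPM against 907 to 1645 CPM (1.97 ± 0.10, adjusted p = 1.3e-15). The summed level of the 26 list genes, Spp1 included, overlapped, at 5830.3 to 8152.5 CPM (median 6499.8) against 4964 to 7957.2 CPM (median 5951).

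Neutrophil and dendritic cell genes leaned the same way. Of 15 tested neutrophil genes, 9 were lower and 2 higher by at least 2-fold (12.3% and 9.68% of all genes), and 3 were lower without overlap (20.2%), with a median of -1.56. The summed level of the 23 neutrophil list genes overlapped, at 283 to 928 CPM against 408 to 1258 CPM. Mmp9, a matrix protease of neutrophil granules, ranged from 3.21 to 43.2 CPM against 116 to 594 CPM (-4.95 ± 0.39, adjusted p = 3.3e-11), whereas the calprotectin genes S100a8 and S100a9 were lower by 1.84 ± 0.52 and 1.56 ± 0.54 with wide overlap. Ly6g, a defining neutrophil marker, reached 0.297 CPM at most. Ptgs2, cyclooxygenase 2, was higher, at 207 to 757 CPM against 27.7 to 211 CPM (2.05 ± 0.28), and Lcn2 was higher by 2.61 ± 0.56. Of 10 tested dendritic cell genes, 6 were lower by at least 2-fold (12.3% of all genes), among them Clec9a, a receptor of cross-presenting cells (0.550 to 2.11 against 7.30 to 16 CPM, -2.78 ± 0.19) and Zbtb46 (-1.71 ± 0.10). Siglech, of plasmacytoid dendritic cells, was higher by 1.67 ± 0.22.

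Chemokines that draw myeloid cells were among the lower genes. Of 43 tested chemokines and receptors, 15 were lower and 7 higher by at least 2-fold (12.3% and 9.68% of all genes), and the summed level was 858 to 1321 CPM against 1562 to 2551 CPM. Cx3cl1, the ligand of Cx3cr1, ranged from 0.970 to 3.06 CPM (median 1.91) against 135 to 330 CPM (median 212) (-6.63 ± 0.20, adjusted p = 1.2e-19). Ccl2, which recruits monocytes, was lower by 2.29 ± 0.14, Ccl5 by 2.64 ± 0.31 and Cxcl16 by 1.42 ± 0.11, and Cxcl12 was higher by 1.15 ± 0.27 with overlap. Csf3, the neutrophil growth factor, had at most 0.162 CPM in expressing and 0.317 to 24.2 CPM in negative tumors (-6.46 ± 0.97).

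Of 48 tested interferon-stimulated genes, 31 were called higher and 5 lower (37.1% and 38.1% of all genes), 11 of the higher ones by at least 2-fold (9.68%), with a median difference of 0.53. Without overlap, 3 were higher and 1 lower (13.2% and 20.2% of all genes). Oas2, a sensor of double-stranded RNA, ranged from 57.3 to 125 CPM against 15.8 to 44.1 CPM (1.62 ± 0.15, adjusted p = 3.7e-10), Oas1g was higher by 1.08 ± 0.13 and Ifi27l2a by 2.46 ± 0.15, all without overlap. The chemokine Cxcl10 was lower without overlap, at 15.6 to 41 CPM against 47.4 to 145 CPM (-1.59 ± 0.18), and the related Cxcl11 was higher by 1.72 ± 0.28.

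Of 22 tested collagens, 13 were lower and 5 higher by at least 2-fold (12.3% and 9.68% of all genes), and 12 were lower without overlap (20.2%), with a median of -1.36 and a summed level of 3272 to 6492 CPM against 11995 to 21645 CPM. Col3a1 ranged from 134 to 1080.3 CPM (median 421) against 2699 to 7904 CPM (median 4232) (-3.19 ± 0.25, adjusted p = 4.0e-11). The 3 chains of collagen VI went together, Col6a1 at 50.6 to 228 CPM against 1478 to 2396 CPM (-3.98 ± 0.17), Col6a2 at 15 to 95.2 CPM against 1123 to 2016 CPM (-5.12 ± 0.23) and Col6a3 lower by 3.83 ± 0.24. The chains of collagen I parted, with Col1a1 lower (187 to 527 against 967 to 2398 CPM, -2.08 ± 0.19) and Col1a2 higher (1332 to 1893 against 479 to 881 CPM, 1.32 ± 0.09), both without overlap. Col16a1 was higher by 2.90 ± 0.11 and Col8a1 by 1.52 ± 0.13.

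Of 19 tested fibroblast and pericyte genes, 9 were lower and 2 higher by at least 2-fold (12.3% and 9.68% of all genes). A further 5 were not called, where 75.2% of all genes were called. The growth factor receptor gene Pdgfra ranged from 34.2 to 72.6 CPM against 263 to 574 CPM (-3.17 ± 0.14, adjusted p = 1.9e-16), Pdgfrb was lower by 1.94 ± 0.11 and the matrix proteoglycan Dcn by 2.13 ± 0.16. Of 24 tested matrix proteases and inhibitors, 11 were lower and 5 higher by at least 2-fold (12.3% and 9.68% of all genes). A further 5 were not called, where 75.2% of all genes were called. Mmp2 (-3.15 ± 0.25) and Adam19 (-3.67 ± 0.10) were lower, and Timp1, an inhibitor of these proteases, was higher, at 197 to 411 CPM against 24.2 to 79.9 CPM (2.73 ± 0.16, adjusted p = 6.4e-14). Of 14 tested endothelial genes, 3 were called (75.2% of all genes) and 11 were not, among them Cdh5 (0.01 ± 0.12) and Pecam1 (0.14 ± 0.07), which was called without CT26 IgG 24, CT26 IgG 27 or PancO2 anti-PD-1 64 (edgeR adjusted p from 0.0248 to 0.0475). Vwf was lower without overlap, at 1.12 to 3.88 CPM against 24.7 to 62.1 CPM (-3.89 ± 0.20). Of 12 tested skeletal muscle genes, 1 was called (75.2% of all genes) and 11 were not. The muscle list summed to 15.2 to 315 CPM against 29.7 to 242 CPM, and the skin list to 3.66 to 6.60 CPM against 4.35 to 128 CPM.

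Genes of hypoxia and glycolysis were divided. Of 30 tested, 8 were higher and 3 lower by at least 2-fold (9.68% and 12.3% of all genes), with a median of 0.38. Carbonic anhydrase genes were higher, Car12 at 9.57 to 20.6 CPM against 0.0912 to 0.713 CPM (5.66 ± 0.24) and Car9 at 13.2 to 72.3 CPM against 1.92 to 4.17 CPM (3.69 ± 0.25), and so was Ldha, lactate dehydrogenase A (1.36 ± 0.12). Egln3, an oxygen-sensing hydroxylase that is itself induced by hypoxia, was lower, at 3.66 to 11.1 CPM against 118 to 364 CPM (-4.80 ± 0.22, adjusted p = 9.0e-16).

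Cda, the cytidine deaminase of pyrimidine salvage, and the UDP receptor P2ry6 are the genes that the study is about. Cda ranged from 4.96 to 8.43 CPM (median 5.64) in expressing and from 3.04 to 9.36 CPM (median 4.65) in negative tumors, with a difference of 0.39 ± 0.18 that was not called (adjusted p = 0.0502). The value lies at the threshold: in 9 of the 23 edgeR fits that left out 1 library it was called, with adjusted p from 0.00779 (without PancO2 IgG 49) to 0.0498. The Cp-high set had 9.11 to 21.3 CPM. Of 26 tested pyrimidine enzymes, 1 was higher and 0 lower by at least 2-fold (9.68% and 12.3% of all genes). The ribonucleotide reductase subunit Rrm2 was higher by 0.73 ± 0.09 and Dhodh, an enzyme of pyrimidine synthesis, lower by 0.45 ± 0.06, each without overlap. P2ry6 ranged from 11.8 to 22.9 CPM against 24.3 to 39.0 CPM (-0.73 ± 0.10, adjusted p = 1.7e-07) and P2ry2, a receptor of ATP and UTP, from 17 to 36.9 CPM against 6.19 to 14.1 CPM (1.54 ± 0.13, adjusted p = 6.9e-11). Enpp2, which makes lysophosphatidic acid, was lower by 5.24 ± 0.30.

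The differences were not spread evenly over the genome. Over all genes, 37.1% were called higher and 38.1% lower. On chromosome 11, 877 of 1293 tested genes were called lower (67.8%) and 172 higher (13.3%). Its median difference was -0.41 against -0.01 over all genes. On chromosome X, 280 of 487 were called higher (57.5%) and 99 lower (20.3%), with a median of 0.30. On chromosome 7, 570 of 1131 were higher (50.4%) and 306 lower (27.1%), with a median of 0.19. Chromosome 8 had 196 higher (25.3%) and 389 lower (50.1%) of 776, with a median of -0.16. In windows of 50 consecutive genes the lowest medians lay on chromosome 11 (-0.64 at chr11:3125904-5784710 and -0.62 at chr11:88718645-96276595) and the highest on chromosome 7 (0.76 at chr7:45627488-59311536, from Rasip1 to Ube3a) and chromosome 6 (0.66 at chr6:3372257-28428390). Col1a1, Acsl6, Krt20 and Trp53 are on chromosome 11, and Krt20 was higher there. Of the 13 protein genes of mitochondrial DNA, the 12 tested had a median difference of 0.47, and 8 of them were higher without overlap (13.2% of all genes).

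**Figure D5:**
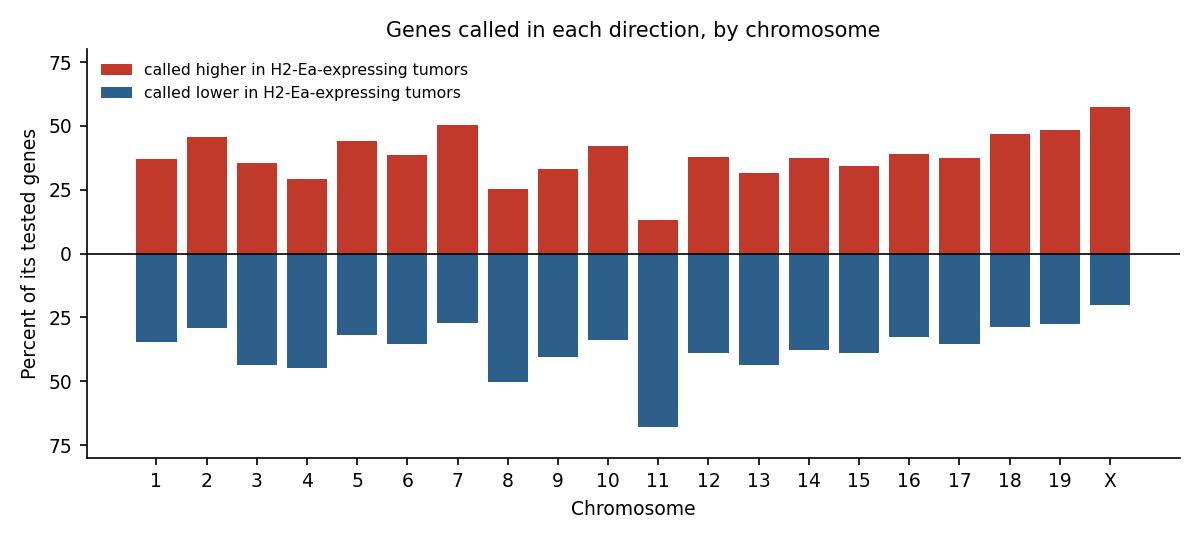
Percent of the tested genes of each autosome and of chromosome X that were called higher (red, upward) and lower (blue, downward) in H2-Ea-expressing than in H2-Ea-negative tumors at an adjusted p under 0.05. Chromosome 11 has the largest lower share (67.8%) and the smallest higher share (13.3%), and chromosome X the largest higher share (57.5%).

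Within each side the tumors were much alike. Over 9070 genes of at least 10 mean CPM on both sides, the median coefficient of variation was 9.19% among expressing and 10.5% among negative tumors, and it was larger among negative tumors in 61% of genes. Among the summed lists, Hox genes varied by 6.87% and oncogenes and tumor suppressors by 2.41% in expressing tumors. Immune lists varied more in the same tumors, with 21.2% for T cell genes, 25.3% for interferon-stimulated genes, 25.9% for class II genes and 31.7% for neutrophil genes.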

How the data were processed

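The authors deposited 1 table of read counts per gene for the 36 libraries, which were poly-A selected (TruSeq V2) and, per the labels and the study's methods, checked with FastQC 0.11.5, aligned to mm10 with TopHat and Bowtie2 and counted with HTSeq 07.2. The gene annotation release and the strand setting are not given in the sources used here. HTSeq leaves out reads with several alignments, so genes with near-identical copies are undercounted. Rows that count unassigned reads were dropped, and CPM are counts divided by the library's sum over genes, times 1000000. Sides were formed on H2-Ea-ps and Cp as described above, and these 2 genes take no part in any count of calls. The members, gene lists and tests were chosen with earlier results of these data known, and the lists support nothing by themselves.

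The main test was edgeR's quasi-likelihood test (edgeR 4.0.16 in R 4.3.3, filterByExpr, TMM scaling, robust) on the deposited counts of the 23 libraries, with Benjamini-Hochberg adjustment over 15569 genes. The standard error of a log2 difference is its size divided by the square root of its F statistic. The study's methods name limma, which was run as an alternative (limma 3.58.1, voom), as was DESeq2 1.42.0. On simulated counts with known changes, edgeR recovered 44 of 50 genes changed by 1.5-fold and 48 of 50 changed by 2-fold, with 6 false calls over 15462 genes. Only 50 genes were changed at each fold there, whereas 75.2% of genes were called in the data. The simulation therefore says nothing of scaling or false calls where most genes differ. Ranges of CPM are called without overlap when every library of 1 side exceeds every library of the other. Genes were named by belonging to a list, by lying within 5 tested genes of a marker, or by size: the 15 largest called differences in each direction among genes without overlap and with a mean of at least 10 CPM on the higher side. Exact binomial intervals of pooled ratios and the floor of 3 counts cover counting error only. The 3 counts of the floor correspond to 0.0865 to 0.254 CPM in a library of the 2 sides. No pair of libraries of a side agreed within sampling noise (lowest chi-square over degrees of freedom 6.91). Correlations of H2-Ea-ps within the expressing side carry no test, since that gene set the sides. Ifi202b was left out of the counts of its lists after its values were seen. It stayed in the fit and in the counts over all genes.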

Additional observations from a re-analysis of the deposited data

Results flagged for a closer look

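The library PancO2 anti-PD-1 71, which entered no comparison, held both marker transcripts far above the level in the H2-Ea-negative tumors. H2-Ea-ps was at 49.35 CPM (389 counts) and Ifi202b at 277.9 CPM (2191 counts), against at most 0.0352 and 0.509 CPM in the 12 negative tumors, and Cp was at 96.5 CPM. By the 2 thresholds it would belong to the H2-Ea-expressing side. Its mitochondrial share was 15.7%, and its log2 CPM correlated at 0.876 to 0.892 with the expressing and at 0.805 to 0.819 with the negative tumors, each below the values between libraries of either side.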

How the results depend on the processing

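Called counts under the other settings stayed within 1.5 times of 11706. Leaving out 1 library at a time gave 11461 to 11752 called genes, and the other settings gave 9700 to 14633. The count of called genes with at least a 2-fold difference, 3421 in all, followed the filter: it was 6552 with no filter on low counts and 1962 when 10 counts were required in every library, because 28818 and 12643 genes were then tested. With scaling by library size alone, the median difference on chromosome 11 was -0.506, on chromosome X 0.202, on chromosome 7 0.093 and on chromosome 8 -0.254, after a shift of the median of all genes by -0.0948. Without 1 library at a time these medians were -0.421 to -0.403, 0.294 to 0.315, 0.177 to 0.203 and -0.162 to -0.133. H2-Ab1 was not called in 4 of 10 other settings (adjusted p from 0.0742 to 0.387, the latter with limma-voom), and Cda was called in 6 of them (adjusted p from 0.016 to 0.0467). S100a9 was not called with limma-voom (adjusted p = 0.0857), whereas Ifng was (adjusted p = 0.023). Tap1 was called with limma-voom and with labelled treatment as a covariate (adjusted p from 0.0399 to 0.0412). With scaling by library size alone, edgeR called Mrc1 (adjusted p = 0.0381) and Pbx2 (adjusted p = 0.00242). No named gene reversed its direction where it was called in the main fit or in the other setting. Changes of sign in genes called in neither were not counted. Moving the H2-Ea-ps threshold to 5 or 20 CPM moved no library. A Cp threshold of 500 CPM moved 1 library from the negative side to the Cp-high set. A Cp threshold of 2000 CPM moved 11 libraries the other way, so that the negative side held 23. The gene tests were not repeated with those sides. No paired analysis was possible because the replicate numbers are not shared between the labelled groups and the sides were formed from counts. Depth limits genes near the floor, where a count of 0 to 3 on 1 side leaves the size of the difference open to counting error.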
